A study of Arabidopsis thaliana with 21 samples.

Results

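Lignin laccases were described here through 6 Arabidopsis thaliana genes: LAC2 (AT2G29130), LAC17 (AT5G60020), LAC4 (AT2G38080), LAC10 (AT5G01190), LAC11 (AT5G03260) and LAC16 (AT5G58910). They were chosen by locus, with no use of measured values, and are 6 of the 27416 protein-coding loci and of the 33602 loci in the deposited annotation. They fall into 2 clades, LAC2 with LAC17, and LAC4 with LAC10, LAC11 and LAC16. The 11 other laccases of the species served as relatives for comparison.

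The study profiled RNA of the woody soc1-ful genotype and of wild type (WT) in 21 libraries, 3 for each of 7 groups. Stems of soc1-ful, which lacks the flowering regulators SOC1 and FUL, were sampled at the herbaceous, cambium and wood stage and its leaves once; WT gave herbaceous stem, cambium stem and leaf. All plants were of ecotype Col-0, were kept at 20 °C with 16 h of light daily, and gave poly(A) RNA for strand-specific libraries. Levels of the laccases in these libraries are not analysed here: every value below comes from the deposited gene annotation and from the reference sequence, so there is no replicate error and no test.

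Laccases are secreted multicopper oxidases. In the cell wall they oxidise monolignols, the alcohol building blocks of lignin, to radicals that couple into the polymer, and 4 copper-binding stretches rich in histidine hold the metal that carries the electrons. LAC4, LAC11 and LAC17 are the members best known for lignifying the Arabidopsis stem, where loss of several of them together reduces lignin. The small RNA miR397 is known to cut laccase transcripts, and miR408 and miR857 target other members of the family when copper is scarce.

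The 4 mature miRNAs are shown first because their pairing divides the 6 genes. They were read 5′ to 3′ from the same RefSeq genome as all sequences below, with the seed, bases 2 to 8, in capitals. Both miR397 forms share 1 seed and differ from the seeds of miR408-3p and miR857.
miR397a: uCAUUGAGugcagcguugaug
miR397b: uCAUUGAGugcaucguugaug
miR408-3p: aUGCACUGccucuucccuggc
miR857: uUUUGUAUguugaagguguau

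The stretch of each laccase that aligns with the miR397 site is shown next, as the coding strand read 5′ to 3′ from the TAIR10.1 sequence of RefSeq, whose chromosomes have the lengths of the deposited TAIR10. Capitals mark bases that form a Watson-Crick pair with miR397a. The stretches lie at chr2:12526364-12526384 on the minus strand in LAC2, chr5:24169068-24169088 on the plus strand in LAC17, chr2:15936120-15936140 on the plus strand in LAC4, chr5:73483-73503 on the plus strand in LAC10, chr5:778274-778294 on the minus strand in LAC11 and chr5:23790736-23790756 on the minus strand in LAC16.
LAC2: aATCAAtGCTGCACTCAATGA
LAC17: aATCAAtGCTGCACTtAATGA
LAC4: agTCAACGCTGCACTtAATGA
LAC10: aATaAACGCaGCAtTgAAcGA
LAC11: tATCAACGCaGCttTaAAcGA
LAC16: CATCAACGCgGCgtTaAAcGA

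LAC2, LAC17 and LAC4 paired closely with miR397a, and LAC10, LAC11 and LAC16 did not. Pairing was scored by a penalty of 1 per mismatch and 0.5 per G-U pair, doubled at miRNA positions 2 to 13 counted from its 5′ end. The penalty was 1.5 in LAC2, 2.5 in LAC17 and 2.5 in LAC4, with 19, 18 and 18 of 21 bases in Watson-Crick pairs. In the same aligned stretch it was 9 in LAC10, 9.5 in LAC11 and 8 in LAC16, all past the limit of 4 used to call a site. The site therefore occurred in both members of the LAC2 clade and in LAC4 of the other clade.

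In each of the 3 genes with a site the only mismatch to miR397a was at position 21, opposite its 3′ end. LAC10, LAC11 and LAC16 shared mismatches at positions 3, 6 and 12, of which the first 2 lie in the seed. The site began at base 50 of coding exon 5 in LAC2 and LAC17 and at base 47 in LAC4, close to the exon's start in all 3. Pairing with miR397b, which differs at position 13, carried a penalty of 3.5 in LAC2, 4.5 in LAC17 and 4.5 in LAC4.

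Sites with a penalty of at most 4 for any of the 4 miRNAs were found in 3 of the 6 members, and in 17 of the 27206 nuclear coding genes (0.0625%). For miR397a alone, the limit of 4 gave a site in 6 genes, of which 3 were laccases: LAC2, LAC17 and LAC4. With a limit of 3, miR397a had a site in 3 genes of the genome, and these were the same 3 laccases. With a limit of 5 it was 15 genes, again with these 3 laccases. No member had a site for miR408-3p or miR857. Of the other laccases, LAC7 had a site for miR857, and LAC3, LAC12 and LAC13 reached miR408-3p only with a limit of 5.

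**Figure D1:**
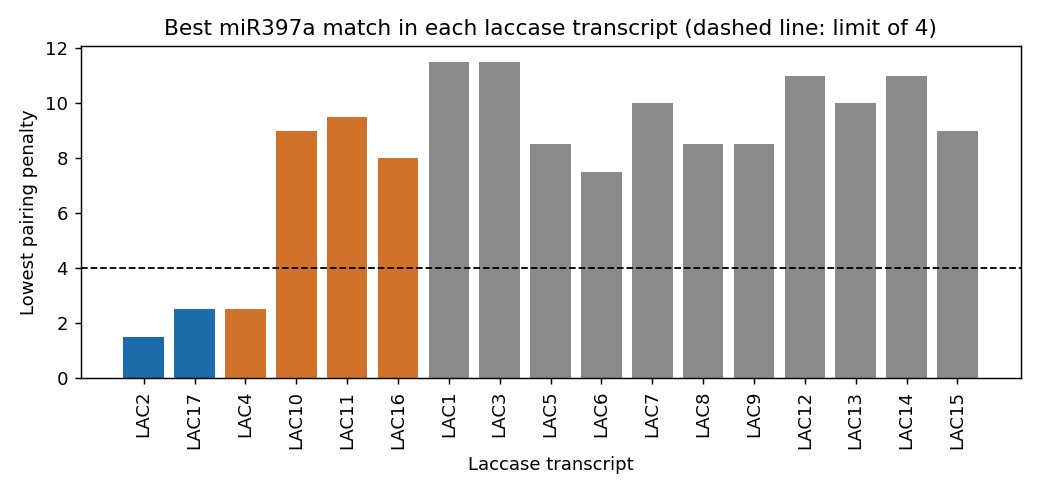
Lowest pairing penalty of miR397a in the transcript of each of the 17 laccases, members at the left (blue for LAC2 and LAC17, orange for the other 4) and the 11 other laccases in grey. Bars under the dashed line at 4 are called sites: LAC2 at 1.5, LAC17 at 2.5 and LAC4 at 2.5, while the 14 others lie at 7.5 or more.

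The gene models of the members were close copies of each other in coding exon lengths. Exons 2, 3 and 4 were 152, 245 and 129 bp long in 5 of 6 members, and the last coding exon was 131 bp in 6 of 6. Coding exons in order were 105, 152, 245, 129, 960 and 131 bp in LAC2 and 90, 152, 245, 129, 987 and 131 bp in LAC17. In the other clade they were 96, 152, 245, 129, 924 and 131 bp in LAC4, 90, 152, 245, 129, 930 and 131 bp in LAC10, and 93, 152, 245, 129, 924 and 131 bp in LAC11. LAC16 stood apart with 5 exons of 146, 224, 129, 942 and 131 bp. Among the 5 members with 6 exons, length differences sat in exon 1, which holds the signal for secretion, and in the long exon 5.

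Exon 5 differed in length between the clades among the members. It had 960 and 987 bp in LAC2 and LAC17, against 924 to 942 bp in LAC4, LAC10, LAC11 and LAC16. Other laccases fell in both ranges and between them, with 927 bp in LAC14, 945 bp in LAC12, 954 bp in LAC7 and 984 bp in LAC5. The length of exon 5 therefore did not set either clade apart within the family. Aligned with LAC4, LAC17 carried 11 additional residues in a row in this exon from residue 301, and aligned with LAC2 it carried 8 from residue 308.

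The run of 152, 245 and 129 bp was found in 11 coding genes of the annotation, all of them laccases, 5 of them members. Coding exons of 152 and 245 bp in a row occurred in 15 genes, again all laccases. A last coding exon of 131 bp was less specific, with 44 genes of which 12 were laccases. Singly, the lengths were common: 333 nuclear coding genes had an exon of 152 bp, 145 one of 245 bp and 749 one of 129 bp. A count of 6 exons was shared by 5 of 6 members, 8 of 11 other laccases and 1587 nuclear coding genes (5.83%). LAC5, LAC6, LAC7 and LAC12 had both the run and the 131 bp last exon of the members.

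None of the lists of lignin genes showed the laccase layout. The 17 monolignol enzymes had a median of 3 exons, the 6 lignin peroxidases 4 and the 5 lignin regulators 2, and 0 genes of these lists had 6.

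**Figure D2:**
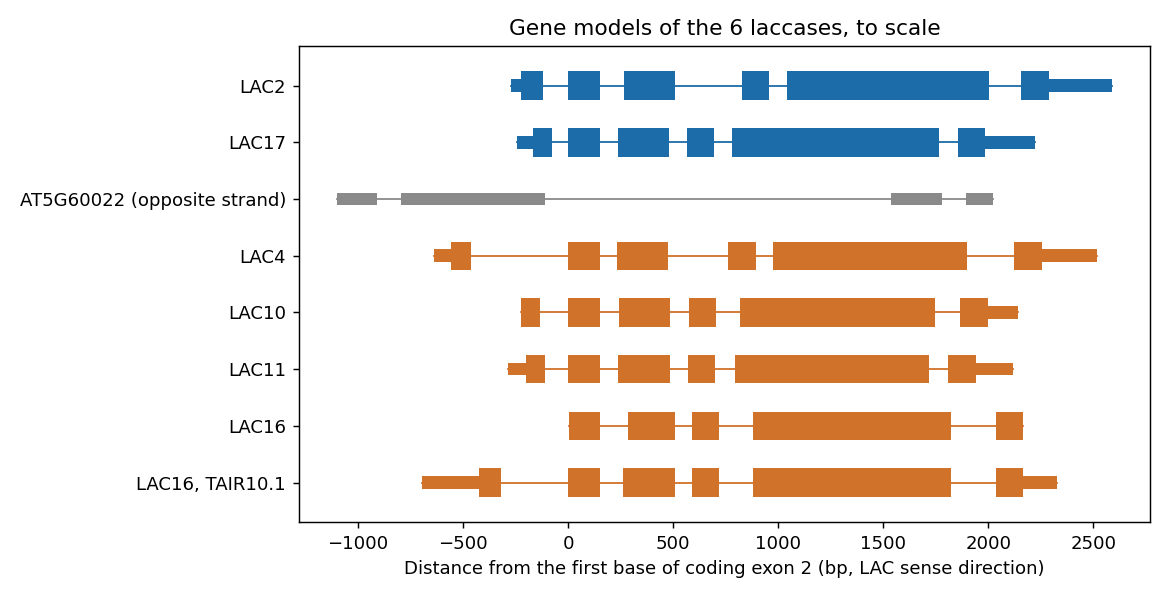
Gene models of the 6 members drawn to scale, with the distance in bp from the first base of coding exon 2; tall boxes are coding exons, low boxes untranslated or non-coding exons, lines introns. Blue marks LAC2 and LAC17, orange the other clade, grey the opposite-strand RNA gene AT5G60022 placed under LAC17; LAC16 is drawn in both annotations.

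LAC2 lies at chr2:12524889-12527747 on the minus strand and spans 2859 bp. LAC17 lies at chr5:24167996-24170462 on the plus strand with 2467 bp. LAC4 lies at chr2:15934460-15937616 on the plus strand and was the longest member, with 3157 bp. LAC10 at chr5:72392-74756, plus strand, spans 2365 bp. LAC11 at chr5:777021-779424, minus strand, spans 2404 bp. LAC16 at chr5:23789522-23791681, minus strand, was the shortest with 2160 bp. The median nuclear coding gene spans 1918 bp. Coding lengths ran from 1572 to 1734 bp in the members, against a median of 1041 bp over nuclear coding genes.

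The members were not clustered with each other on the chromosomes. Chromosome 5 held 4 of them and chromosome 2 held 2. The nearest pair, LAC16 and LAC17, lay 376 kb apart. LAC10 lay closer to a laccase outside the set, LAC9, at 51.6 kb with 14 coding genes between. LAC8 and LAC9, 1.91 kb apart, were the laccases that stood next to each other.

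Introns differed where the exons did not. The 29 introns of the members ran from 77 to 462 bp with a median of 92 bp, and 15 were shorter than 100 bp. The 51 introns of the other laccases ran from 71 to 582 bp, median 102 bp. Over all introns of nuclear coding genes the median was 99 bp, with quartiles of 86 and 166 bp. All 29 member introns began with GT and ended with AG, and all interrupted coding sequence.

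LAC17 had the smallest intron share of the members, with introns of 77, 85, 85, 84 and 87 bp that took 16.9% of its span. Its clade partner LAC2 had introns of 119, 112, 317, 87 and 154 bp, or 27.6% of the span. LAC4 had the highest intron share of the members, with introns of 462, 79, 287, 84 and 224 bp, or 36.0%. LAC10 had 135, 90, 90, 111 and 118 bp (23.0%) and LAC11 had 109, 86, 89, 92 and 91 bp (19.4%). LAC16, whose model lacks the first intron, had 132, 81, 164 and 211 bp (27.2%). Intron size did not follow the clades: a long intron 3 was found in LAC2 and LAC4, and short introns throughout in LAC17 and LAC11.

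**Figure D3:**
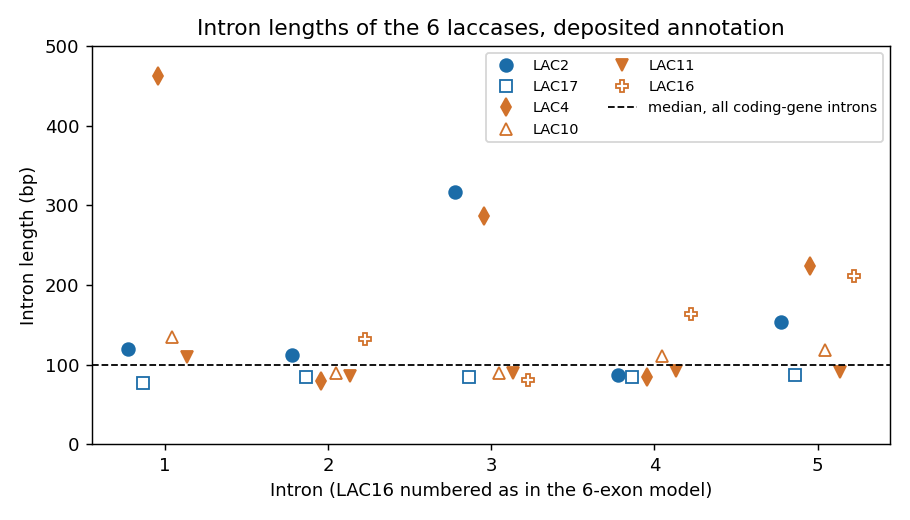
Length in bp of each intron of the 6 members by its place in the gene, with the median over all introns of nuclear coding genes (99 bp) as a dashed line. LAC4 has the longest first intron at 462 bp, LAC2 and LAC4 the longest examples of intron 3 at 317 and 287 bp, and all 5 introns of LAC17 lie below the line.

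Introns interrupted the proteins at the same places. Over the 15 pairs of members, 68 of 70 comparable introns fell at the same aligned residue and in the same phase, that is, the same base of the codon. Within LAC2 and LAC17 it was 5 of 5, within the other clade 25 of 27, and between the clades 38 of 38. Both exceptions were intron 4 of LAC4, set against LAC11 and against LAC16, where the alignment placed a gap of 1 codon at the start of exon 5. With up to 5 residues allowed, 70 of 70 matched. The phases were 0, 2, 1, 1 and 1 for introns 1 to 5. These places were not particular to the members. At the exact residue and phase of a LAC4 intron lay 5 of 5 introns in LAC5 and LAC6 and 4 of 4 in LAC1 and LAC3. LAC7, LAC12, LAC14 and LAC15 had 4 of 5 there, as did LAC11. It was 3 of 5 in LAC8 and LAC9 and 2 of 3 in LAC13.

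Among the members, LAC4 had the most GC-rich coding sequence, at 49.5%, while LAC3 and LAC7 of the other laccases had 50.4% and 49.7%. Codon position 3 was G or C in 54.7% of LAC4 codons, higher than in 95.5% of nuclear coding genes. LAC2 and LAC17 had 43.0% and 41.3%, near the median of 42.1%. LAC10, LAC11 and LAC16 lay between, at 46.5%, 49.3% and 49.6%, so the clades did not overlap in this measure among the members. The other laccases ran from 39.8% in LAC6 to 53.7% in LAC7, with LAC15 at 44.5% and LAC9 at 46.3%, and so covered both clades.

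Untranslated regions (UTRs) were annotated unevenly. The 5′ UTR had 48 bp in LAC2, 76 bp in LAC17, 80 bp in LAC4 and 86 bp in LAC11, and the 3′ UTR had 300, 239, 264 and 177 bp in the same 4 genes. LAC10 had no 5′ UTR and a 3′ UTR of 144 bp, and LAC16 had neither. The newer TAIR10.1 annotation, on chromosomes of the same lengths, moved both ends of LAC2, LAC10 and LAC16 outward. It moved only the 5′ end of LAC4 outward and kept both ends of LAC17 and LAC11. It gave LAC4 a 5′ UTR of 296 bp, LAC10 one of 100 bp, and LAC16 UTRs of 270 and 159 bp.

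LAC16 was the member whose model changed most between annotations. The isoform listed first in TAIR10.1 had 6 exons and 567 residues, against 5 exons and 523 residues in TAIR10. TAIR10.1 still lists the 5-exon, 523-residue model, with the same exon lengths, as another isoform. The 6-exon model adds an exon with 105 coding bp and an intron of 320 bp upstream, and its start codon opens this added stretch. With it, LAC16 had exons of 152, 245 and 129 bp like the other 5, and the run occurred in 12 coding genes, all laccases.
LAC16 start codon in TAIR10.1: ATGgagattccaagacggttt
LAC16 start of exon 2: gcactAGgtggtgATGacgaacac

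Capitals in the first line mark the TAIR10.1 start codon at chr5:23792092-23792112, and in the second the acceptor AG and the TAIR10 start codon at chr5:23791671-23791694, both on the minus strand. The TAIR10 start codon lies 6 bases into exon 2. LAC17 and LAC4 also had an ATG in frame at base 7 of exon 2, and LAC2, LAC10 and LAC11 did not.

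The next junction differed too. TAIR10 opened LAC16 exon 3 at an acceptor 21 bases, or 7 codons, downstream of the one in the 6-exon model of TAIR10.1. The stretch with both, at chr5:23791399-23791428 on the minus strand, is shown with the 2 AG acceptors in capitals.
LAC16 acceptors: atAGgcacgggattagacaattgAGgacag

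The 21 bases were present in every other member as the opening of exon 3. They are shown with the codon of the second histidine of the first copper-binding stretch in capitals.
LAC2 exon 3: gCATggtatccggcagctaag
LAC17 exon 3: gCATgggatccggcaattacg
LAC4 exon 3: gCACggtgtgagacaagtgag
LAC10 exon 3: gCATgggataagacaattaag
LAC11 exon 3: gCATgggcttaaacagtaccg
LAC16 exon 3: gCACgggattagacaattgag

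These openings lie at chr2:12527191-12527211 (LAC2, minus strand), chr5:24168476-24168496 (LAC17, plus), chr2:15935329-15935349 (LAC4, plus), chr5:72859-72879 (LAC10, plus), chr5:778878-778898 (LAC11, minus) and chr5:23791404-23791424 (LAC16, minus). LAC10 matched LAC16 at 18 of the 21 bases, LAC4 at 17, LAC17 at 15, LAC11 at 14 and LAC2 at 13. The first copper-binding stretch, histidine, tryptophan, histidine and glycine, spanned the junction of exons 2 and 3 in 5 members. It was missing from the TAIR10 protein of LAC16 and present at residue 85 of the 567-residue protein of TAIR10.1. The 5-exon isoform that TAIR10.1 keeps has the same short exon of 224 bp and so also leaves out these 21 bases. The other 3 copper-binding stretches were found in 6 of 6 members, the second in exon 3, the third in exon 5 and the fourth in the last exon (exon numbers of the 6-exon models).

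TAIR10.1 also listed more isoforms, 3 for LAC17, 2 for LAC10 and 3 for LAC16, where TAIR10 had 1 for each member. In LAC17, 1 of them encoded 547 residues and another 545, against 577 for the first listed. The second isoform of LAC10 encoded 544 residues, against 558. Of the other LAC16 isoforms, 1 was the 5-exon model of 523 residues, and the other had 6 exons and 566 residues, with an exon 2 of 149 bp and an intron 1 of 323 bp that began with GT and ended with TG.

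At the level of protein, LAC2 and LAC17 were 69.0% identical. Identity within the other clade ran from 59.2 to 74.5% (median 65.5%, 6 pairs) and between the clades from 53.3 to 59.5% (median 56.9%, 8 pairs). LAC4 was closest to LAC10 at 74.5% and to LAC16 at 74.3%, and LAC10 and LAC16 were 69.6% identical. LAC11 stood further out: it was 61.5% identical to LAC4, 60.3% to LAC16 and 59.2% to LAC10, and 59.5% to LAC17 and 58.5% to LAC2. Of the 7 pairs within a clade, 6 exceeded every pair between clades, and the exception was LAC10 with LAC11. These values use the TAIR10 protein of LAC16, which lacks the first exon of the TAIR10.1 model. With the TAIR10.1 model, LAC16 was 58.5% identical to LAC11, 72.5% to LAC4 and 69.0% to LAC10. LAC11 with LAC16 then fell below LAC11 with LAC17 at 59.5%, and 5 pairs within a clade exceeded every pair between clades.

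Each member's closest laccase was in its own clade. The closest of the 11 other laccases was 51.7 to 55.0% identical: LAC12 for LAC2, LAC11 and LAC16, LAC3 for LAC17 and LAC4, and LAC5 for LAC10. Over all 136 pairs of the 17 laccases identity ran from 42.2 to 89.2%, the highest between LAC8 and LAC9.

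**Figure D4:**
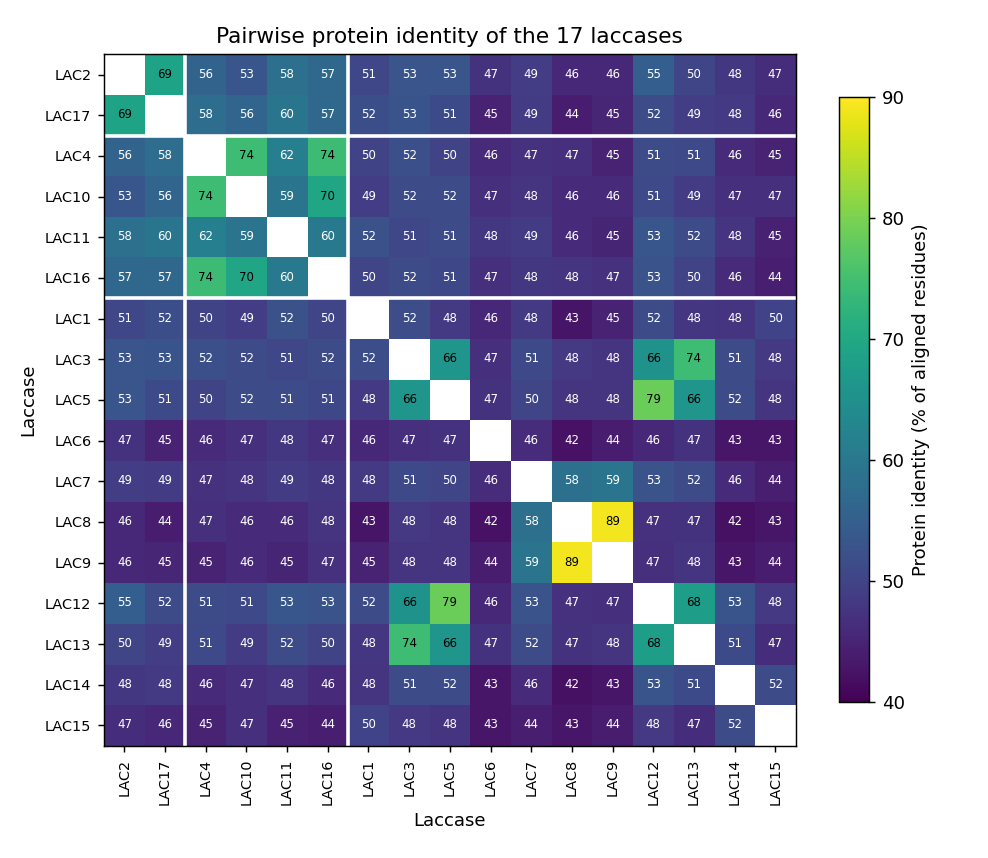
Pairwise protein identity (percent of aligned residues, printed as whole numbers) among the 17 laccases, with white lines between LAC2 and LAC17, the other member clade and the 11 other laccases. Members share 53.3 to 74.5% with each other; LAC8 with LAC9 reaches 89.2%.

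The exons differed in how far they were conserved. Of the residues encoded whole in an exon, 41 of 81 (50.6%) in exon 3 and 22 of 42 (52.4%) in exon 6 were identical in all 6 members. In exon 2 it was 18 of 50 (36.0%) and in exon 4 it was 12 of 42 (28.6%). LAC16 entered each exon comparison with its TAIR10.1 exons. Exon 4 was 73.8% identical between LAC2 and LAC17 and 40.5 to 59.5% between clades, while LAC4 and LAC10 shared 83.3% of it. LAC11 shared 45.2% of exon 4 with LAC4, 50% with LAC10 and 47.6% with LAC16, less than the 59.5% and 57.1% it shared with LAC2 and LAC17. Exon 1 was the least conserved, with 17.9 to 48.3% over the 15 pairs, and exon 5 ran from 49.7 to 72.6%.

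**Figure D5:**
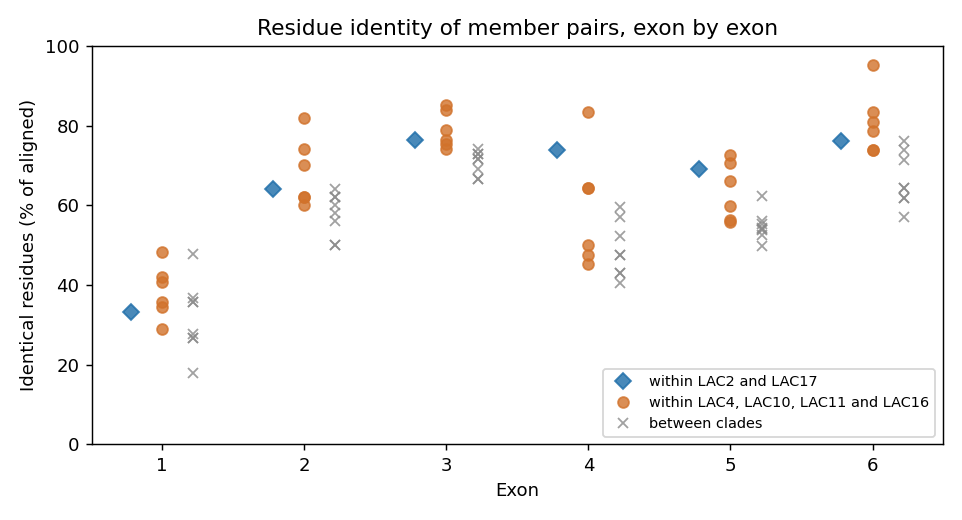
Identical residues (percent of aligned residues) for each of the 15 member pairs in each exon; blue diamonds are LAC2 with LAC17, orange circles pairs within LAC4, LAC10, LAC11 and LAC16, grey crosses pairs between clades. Exon 1 lies lowest, at 17.9 to 48.3%, and exon 4 spreads from 40.5 to 83.3%.

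The antisense partner of LAC17 was the widest overlap among the members. AT5G60022, a non-coding RNA gene of 4 exons on the opposite strand, starts inside LAC17's last exon, 201 bp before the end of LAC17, and runs 855 bp past its start. It shared 494 bp with LAC17 exons, 24.1% of them: 380 coding bp, 76 bp of 5′ UTR and 38 bp of 3′ UTR. The shared bases lay in exon 1 (131 bp), exon 5 (231 bp) and exon 6 (132 bp) of LAC17, and exons 2, 3 and 4 were free of it. Exon 3 of AT5G60022 also covers 550 bp just upstream of LAC17.

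LAC11 shared 28 bp, 1.45% of its exons, with the coding gene AT5G03250 on the opposite strand, where the 3′ UTRs of both meet tail to tail. LAC2, LAC4, LAC10 and LAC16 shared no exonic base with another gene. So 2 of 6 members had a partner of some class, coding or not, where 13.5% of coding genes had one, and 1 of 6 had a coding partner, where 12.3% did. No member shared bases with a gene on its own strand.

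In TAIR10.1 the count was again 2 of 6 members, LAC17 and LAC11, while the share over all coding genes was 27.7%. LAC17 gained a further RNA partner there, AT5G00685, with 21 bp. Of the other laccases, LAC6 shared 1099 bp (64.3% of its exons) with the RNA gene AT2G46572 and LAC8 shared 108 bp with AT5G01030, all on opposite strands in TAIR10. Among lignin genes in TAIR10, 2 of 17 monolignol enzymes had a partner. They were C3H1 (a hydroxylase of the monolignol pathway, 70 bp with CYSA) and CCR1 (cinnamoyl-CoA reductase, 473 bp with NRAMP6). In TAIR10.1 it was 3 of 17, with 4CL1 added (24 bp with AT1G51670). PRX64, a peroxidase, and MYB58, a lignin regulator, were the 1 of 6 and the 1 of 5 in their lists in both annotations.

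Neighbours of the members that shared no base with them were 779 bp or further away in TAIR10. LAC2 lay between RTFL2 (779 bp) and PUM3 (3090 bp), and LAC4 between AT2G38070 (3665 bp) and AT2G38090 (7094 bp). LAC10 lay between the transposable element gene AT5G01185 (2467 bp) and AT5G01200 (2359 bp). LAC16 lay between AT5G58900 (4187 bp) and AT5G58920 (1447 bp), LAC11 was 2445 bp from LOG6, a gene of cytokinin activation, and LAC17 was 1619 bp from AT5G60030.

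The promoters of 5 of 6 members held an AC element. AC elements are short motifs bound by MYB regulators of lignin genes: AC-I is ACCTACC. AC-II is written ACCAACC. AC-III is written ACCTAAC. They were searched on both strands from 250 bases before to 50 after the annotated start, together with the tracheary element motif TERE (CTTNAAAGC followed by any base and A). An AC element or TERE was present in 5 of 6 members and in 7.97% of 27206 nuclear coding genes. AC-II occurred in LAC2, LAC10 and LAC11, AC-III in LAC17 and AC-I in LAC4. All 5 read on the gene's own strand, none overlapped another, and no member had TERE.

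The windows of LAC2, LAC10, LAC11 and LAC17 are shown with the AC element in capitals, 5′ to 3′ on the gene's strand, to let the surroundings be compared.
LAC2 AC-II: tttattttgttACCAACCattaaccctacc
LAC10 AC-II: cataaaaagatACCAACCtacacttaggtt
LAC11 AC-II: cagagtgattcACCAACCttttcttttcat
LAC17 AC-III: ctcaagcaaacACCTAACtctcctttccta

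They lie at chr2:12527859-12527888 (LAC2, minus strand), chr5:72136-72165 (LAC10, plus), chr5:779467-779496 (LAC11, minus) and chr5:24167924-24167953 (LAC17, plus). The elements begin at −130 in LAC2, −245 in LAC10, −61 in LAC11 and −61 in LAC17, counted from the annotated start, and AC-I of LAC4 begins at −93. In LAC17 all 7 bases of AC-III lie within exon 3 of the opposite-strand gene AT5G60022.

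AC elements were present in 13 of 17 monolignol enzymes, against 2 of 11 other laccases, 1 of 6 peroxidases and 1 of 5 regulators. With the TAIR10.1 starts, 4 of 6 members held one, because the LAC4 start moved 216 bp upstream past its AC-I. At these starts an AC element was present in 7.29% of genes and in 2 of 11 other laccases. The monolignol enzymes with one numbered 9 of 17 with these starts. Over 1000 bases before the TAIR10 start, AC elements were found in 5 of 6 members, against 22.3% of nuclear coding genes, and LAC16 had none. In that wider window it was 16 of 17 monolignol enzymes, 3 of 11 other laccases, 4 of 6 peroxidases and 2 of 5 regulators. The copper-response core GTAC was added after the other motifs were searched. From 250 bases before to 50 after the TAIR10 start it was found in 3 of 6 members and 36.7% of genes. With the TAIR10.1 starts it was 2 of 6 members, LAC17 and LAC11 without LAC16, and 39.0% of genes.

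No stretch of 25, 50 or 100 bases within an exon of a member recurred elsewhere in the genome. The same was true of the other laccases except LAC8 and LAC9, so it did not set the members apart. LAC8 and LAC9 each had 97 stretches of 50 bases that recurred. In the TAIR10 models, the longest run shared by the transcripts of 2 members was 24 bases, in LAC4 and LAC16. In LAC4 it crosses exons 2 and 3, where the first copper-binding stretch is encoded. The TAIR10 transcript of LAC16 leaves out the 21 bases that open exon 3 in TAIR10.1. These begin with gCACgg, as in LAC4, so with the TAIR10.1 model the run goes on past 24 bases. Its length with that model was not computed. Across a splice junction, LAC4 and LAC15 shared 26 bases.
Shared by LAC4 and LAC16: aagtacaacgtctccatccactgg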

How the data were processed

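The authors deposited a TAIR10 annotation of 590264 lines in 9 columns, whose values are feature positions in bp counted from 1. A score was present in 0 lines and 0 columns of per-sample values were left unused, so depth and expression are not analysed here. The submitters' processing notes name TopHat2 2.0.8, Trimmomatic 0.0.3 and TAIR10 without saying what each was for.

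Exons, introns and UTRs were read from the isoform listed first. Overlap was counted over all isoforms, from 1 shared base. Sequences come from RefSeq's TAIR10.1 genome: 5 of 5 nuclear chromosomes have equal lengths, and 99.8% of 27206 nuclear coding genes translate in an intact frame. Proteins were aligned globally with Biopython 1.88 (BLOSUM62, gap opening 10, extension 0.5; ends free) in Python 3.11.15, and identity is given over aligned residues. No bulge was allowed in miRNA pairing. Overlap counting, alignment, translation and miRNA scoring were tested on simulated data. Members and lists were chosen with earlier results of these data known. The text names all members, every gene sharing bases with one, their neighbours, the closest laccases, and list genes with a partner. Alternatives covered annotation, isoforms, overlap rules, alignment scoring, miRNA limits, promoter windows and word length.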

Additional observations from a re-analysis of the deposited data

How the results depend on the processing

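The 7 counts were recomputed under 25 alternatives, and 21 stayed within 1.5 times. The count of members sharing exonic bases, 2, moved to 1 with at least 50 shared bases, to 0 with coding sequence only in both genes, to 1 with coding partners only, and to 1 with coding partners in TAIR10.1. Alternatives that use TAIR10.1 for the LAC16 model, for the promoter starts or with coding partners were chosen after seeing the data. Introns at the same position in all 6 members numbered 3 and ran from 3 to 4 with any member left out. Within-clade pairs above every between-clade pair numbered 6, or 7 with BLOSUM45, 7 over the shorter protein and 5 with the TAIR10.1 LAC16. No paired analysis was possible because no result comes from a test and no library values were used. Annotated ends limit every UTR and promoter value, and pairing or motif letters show no cutting or binding.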
